A study of Homo sapiens with 16 samples.

Results

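The genes described here are the small nucleolar RNA (snoRNA) and small Cajal body RNA (scaRNA) genes that had reads in NCI-H929 cells, a human multiple myeloma line of plasma cell origin. They were selected on their symbol, which begins with SNORD, SNORA or SCARNA, and on their summed count, which is at least 50 over the 16 libraries. Of 57500 genes in the count tables, 551 carried such a symbol and 80 reached the minimum, namely 40 SNORD, 34 SNORA and 6 SCARNA genes. Reads set the membership, so the presence of counts in these genes is not itself a result. RNA had been sequenced in bulk in 4 libraries of cells that had received the compound called p300 degrader 27 (3 nM, 6 h; a degrader directs its target protein to destruction), 4 of cells given the solvent DMSO, 4 of p300 knockout (KO) cells and 4 of NTC cells, the control of the KO. p300, the product of EP300, is a histone acetyltransferase and transcriptional coactivator. All groups are the same cell line, with no other agent or allele in the labels. The labels leave out the method of the KO and whether the KO cells are 1 clone. They also do not call the replicates separate cultures, and the p-values therefore reflect variation among libraries that could be technical in part.

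A snoRNA is a short RNA that guides chemical modification of other RNAs by base pairing. Box C/D snoRNAs (SNORD) carry the methyltransferase fibrillarin and direct 2′-O-methylation, while H/ACA snoRNAs (SNORA) carry the pseudouridine synthase dyskerin, and both act mainly on ribosomal RNA in the nucleolus. ScaRNAs (SCARNA) share these architectures but sit in Cajal bodies and guide modification of spliceosomal RNAs. In human cells most are cut out of introns of a host gene after splicing. U3 is the main exception among those counted here: it is transcribed from its own promoter and serves the early cleavages of the ribosomal RNA precursor, and it is not known to guide a modification. A bulk count of such a gene can come from the mature RNA, a precursor or retained intron sequence, and these cannot be told apart here.

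Sequences are shown for members on which the results turn, from GENCODE 29 transcripts on GRCh38, and all 80 members had an entry there. U3 comes first, from SNORD3A at chr17:19188016-19188232 and SNORD3B-1 at chr17:19061912-19062128, both on the plus strand of chromosome 17. The box C/D genes SNORD104 at chr17:64146083-64146152 (plus strand) and SNORD99 at chr1:28578749-28578822 (minus strand) follow, as abundant members inside host genes. The H/ACA genes are SNORA73B at chr1:28508559-28508762 (plus), SNORA33 at chr6:132817219-132817348 (plus) and SNORA71A at chr20:38427309-38427442 (minus). The scaRNA is SCARNA13 at chr14:95533355-95533629 (minus). Capitals mark the first exact ATGATGA or GTGATGA (box C), a CTGA beginning within the last 12 bases (box D), or, in H/ACA RNAs, the last ACA beginning within the last 8 bases, all read on the RNA strand.
SNORD3A: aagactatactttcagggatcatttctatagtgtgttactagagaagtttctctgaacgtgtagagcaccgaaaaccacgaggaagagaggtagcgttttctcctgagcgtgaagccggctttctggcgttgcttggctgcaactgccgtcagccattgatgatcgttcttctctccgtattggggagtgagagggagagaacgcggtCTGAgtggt
SNORD3B-1: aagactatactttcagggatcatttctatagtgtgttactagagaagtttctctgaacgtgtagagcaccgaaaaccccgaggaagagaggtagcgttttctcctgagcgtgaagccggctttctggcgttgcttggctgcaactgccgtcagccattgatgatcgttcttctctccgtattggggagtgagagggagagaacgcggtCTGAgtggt
SNORD104: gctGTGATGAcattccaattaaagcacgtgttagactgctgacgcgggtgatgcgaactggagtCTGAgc
SNORD99: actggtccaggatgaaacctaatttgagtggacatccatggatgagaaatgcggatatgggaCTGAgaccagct
SNORA73B: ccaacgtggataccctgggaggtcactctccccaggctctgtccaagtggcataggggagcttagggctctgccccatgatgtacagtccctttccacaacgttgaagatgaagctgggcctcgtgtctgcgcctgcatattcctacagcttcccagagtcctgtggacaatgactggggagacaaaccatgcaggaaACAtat
SNORA33: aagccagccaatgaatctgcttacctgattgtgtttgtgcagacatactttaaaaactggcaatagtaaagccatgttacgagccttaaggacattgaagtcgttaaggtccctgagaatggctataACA
SNORA71A: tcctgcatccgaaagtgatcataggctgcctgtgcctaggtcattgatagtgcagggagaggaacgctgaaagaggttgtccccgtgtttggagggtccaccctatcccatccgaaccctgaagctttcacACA
SCARNA13: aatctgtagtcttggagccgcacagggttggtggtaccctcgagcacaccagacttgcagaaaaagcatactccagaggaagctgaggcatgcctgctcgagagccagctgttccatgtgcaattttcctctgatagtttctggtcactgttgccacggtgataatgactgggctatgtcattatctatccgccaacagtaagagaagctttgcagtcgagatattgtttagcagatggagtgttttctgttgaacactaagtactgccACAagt
By these letters, box C was found in 26 of 40 SNORD, 1 of 34 SNORA and 2 of 6 SCARNA members, and box D in 32 of 40, 0 of 34 and 3 of 6. The terminal ACA was found in 33 of 34 SNORA, 7 of 40 SNORD and 4 of 6 SCARNA members, so the symbols matched the box content of the 2 main classes, apart from those exceptions. Over the 217 bases of U3, SNORD3B-1 and SNORD3B-2 did not differ, and SNORD3A differed from both at 1 position, written A78C from SNORD3A to SNORD3B-1 with positions counted from the 5′ end. The annotated genes are longer than U3 itself, at 699, 758 and 791 bases for SNORD3A, SNORD3B-1 and SNORD3B-2, and over the shorter gene of each pair they were 97.8% to 99.3% identical. How reads that map to several places were counted is not stated, so the split of reads among the 3 genes is uncertain, and they are given together as well as singly.

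Only part of the known repertoire was counted. No count fell on 294 of the 551 genes and 177 had 1 to 49 counts. Genes listed at 0 included SNORA73A, SCARNA2, SCARNA17 and SNORD14C, and also SNORD13 and SNORD118, independently transcribed RNAs of ribosomal RNA processing, while SCARNA5, SCARNA6 and SCARNA10 had 24, 20 and 37 counts. Of the 294 genes at 0, 139 (47.3%) lay wholly inside an annotated exon of another gene on either strand, against 0 of the 80 members and 0 of the 177. Just inside the minimum were SNORA2B and SNORA68B with 50 counts each, and just outside were SNORD51, SNORA31, SNORD13E, SNORD111 and SNORD88A with 49 each.

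The 80 members lay on 18 chromosomes, and 76 of them lay within a longer gene on the same strand, taken here as the host. The 4 without a host were SNORD3A, SNORD3B-1, SNORD3B-2 and SNORA11F. Annotated lengths had a median of 84.5 bases in SNORD, 134.5 in SNORA and 272.5 in SCARNA members. Counts were few: a member had a median of 159.5 counts over all 16 libraries, with a range of 50 to 9961. SNORD104, which lies in SNHG25, held 24.4% of all member counts, SNORD3B-2 10.4%, SNORD3B-1 8.17% and SNORA73B, in SNHG3, 6.56%. Per kilobase of annotated length, the mean level over the 16 libraries was 607.9 nuclear CPM (counts per 1000000 counts outside the mitochondrial genome) for SNORD104, 57.3 for SNORD99, 54.0 for SNORA73B, 46.6 for SNORA33, 22.0 for SNORD3B-2, 15.5 for SCARNA9, 12.2 for SCARNA7 and 8.08 for SNORD3A. These are chosen members and not a ranking, since other short members such as SNORD14A and SNORD12C are left out.

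Total counts per library ran from 12590308 to 23120350. Degrader replicate 2 and p300 KO replicate 1 stood apart, with 64.9% and 47.7% of their counts on the mitochondrial genome against 5.99% to 23.5% in the other 14 libraries, which left 4422984 and 8655416 nuclear counts against 13602348 to 20745456. Comparisons of members are therefore given with and without these 2 libraries. Among the other libraries the share was 13.4% to 23.5% in DMSO and 5.99% to 6.96% in degrader, with no overlap. It was 8.91% to 10.3% in NTC and 10.2% to 11.4% in KO libraries. Leaving out degrader replicate 2 thus still leaves degrader and DMSO at different shares, and the part of this in the degrader contrast was not tested. A gene at 0 could have had up to 3 counts, or 0.145 to 0.678 nuclear CPM depending on the library, and this floor covers counting error only. In bulk RNA, fewer cells of a type and less RNA per cell cannot be told apart. The 8 plasma cell markers were all detected and summed to 9760 to 17812 nuclear CPM per library, while those of T cells, monocytes, erythroid cells, fibroblasts and epithelium summed to at most 58.8, 12.5, 2.03, 1.63 and 20.7. EP300 RNA had 59.8, 45.6, 40.1 and 45.0 nuclear CPM in KO libraries against 117.8, 109.9, 108.9 and 111.4 in NTC libraries, a log2 fold change of -1.24 ± 0.11 (SE; edgeR adjusted p = 2.2e-04), or -1.36 ± 0.06 without KO replicate 1 (edgeR adjusted p = 1.5e-21), and EP300 RNA is no check on a compound that acts on the protein.

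The summed level of each class shows both the groups and the libraries that stand apart. Box C/D members summed to 128.1, 226.8, 133.2 and 152.8 nuclear CPM in degrader replicates 1 to 4, against 171.3, 132.2, 169.5 and 156.8 in DMSO. In the KO libraries they summed to 121.8, 52.4, 47.8 and 48.3, against 85.8, 97.2, 101.5 and 95.3 in NTC. Degrader replicate 2 and KO replicate 1 were the highest of their groups, and without them every KO library lay below every NTC library while degrader and DMSO overlapped. H/ACA members summed to 41.1, 67.2, 44.2 and 43.2 in degrader libraries against 69.9, 51.5, 57.8 and 60.6 in DMSO, and to 26.6, 22.0, 21.8 and 21.5 in KO libraries against 17.8, 19.0, 19.1 and 18.9 in NTC. Here degrader replicates 1, 3 and 4 lay below all DMSO libraries, and all KO libraries lay above all NTC libraries on this scale. The 6 scaRNA genes summed to 7.48, 62.9, 7.46 and 7.19 in degrader libraries against 12.3, 14.0, 19.1 and 12.7 in DMSO, and to 42.7, 7.69, 6.69 and 9.55 in KO libraries against 6.76, 5.18, 6.46 and 6.2 in NTC. Without degrader replicate 2 and KO replicate 1, the degrader libraries lay below all DMSO libraries, and KO and NTC overlapped.

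**Figure D1:**
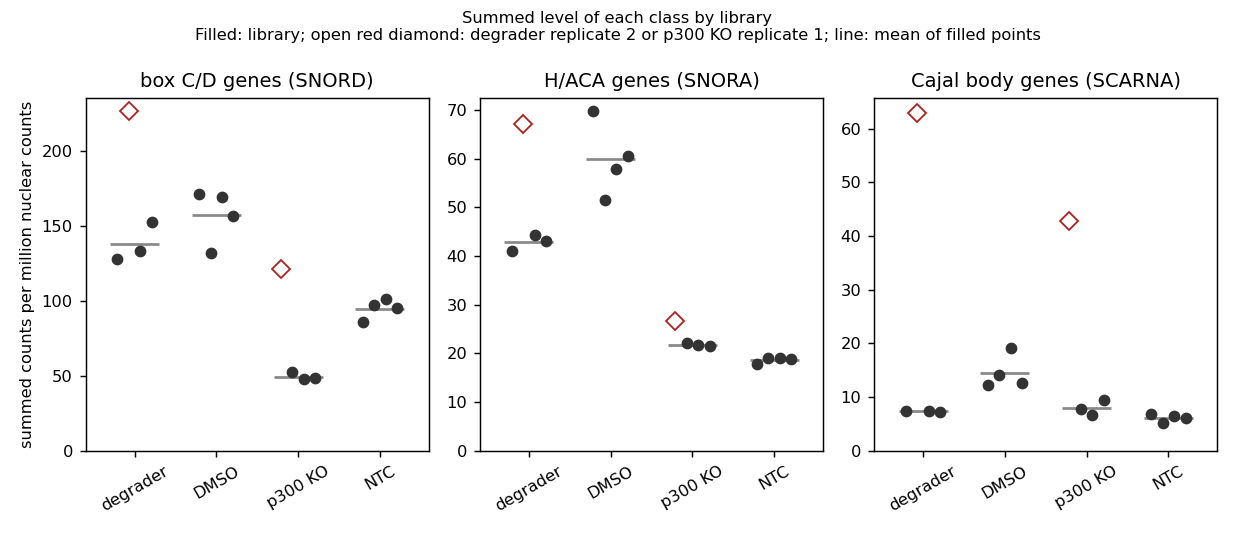
Summed level in nuclear CPM (vertical axis, from 0) of the 40 SNORD, 34 SNORA and 6 SCARNA members in each of the 16 libraries. Filled points are libraries, open diamonds are degrader replicate 2 and p300 KO replicate 1, and lines are means of the filled points; the diamonds reach 226.8 and 121.8 for SNORD and 62.9 and 42.7 for SCARNA.

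The direction of degrader replicate 2 in these sums depends on the denominator. All members summed to 356.8 nuclear CPM there, against 176.6 to 203.2 in the other degrader libraries, but to 125.3 CPM of all counts, against 166.0 to 189.0. For KO replicate 1 the sum of all members was higher on both scales, at 191.1 against 76.2 to 82.2 nuclear CPM and 99.9 against 68.1 to 73.8 CPM of all counts. Its H/ACA sum turned with the scale: in CPM of all counts it was 13.9, against 19.1 to 19.8 in the other KO libraries and 16.2 to 17.2 in NTC, so that KO replicate 1 then lay below every NTC library and the other KO libraries above them. The scaRNA sum was higher in both libraries on both scales, with 22.1 CPM of all counts in degrader replicate 2 against 6.69 to 7.03 in the other degrader libraries, and 22.3 in KO replicate 1 against 5.98 to 8.47. The degrader contrast without replicate 2 also moved with the scale. For all members the ratio of the degrader mean to the DMSO mean was 0.81 in nuclear CPM and 0.93 in CPM of all counts. It was 0.88 and 1.00 for SNORD, 0.71 and 0.82 for SNORA, and 0.51 and 0.58 for SCARNA members.

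The members that were high in one of these libraries were largely high in the other. SCARNA7, a box C/D scaRNA in the KPNA4 gene, had 1.32, 25.1, 1.60 and 1.14 nuclear CPM in degrader libraries and 17.9, 1.52, 1.58 and 1.26 in KO libraries, against 1.86, 1.24, 2.72 and 2.46 in DMSO and 0.723, 1.25, 1.40 and 1.5 in NTC. Degrader replicate 2 was thus 18.6 times the mean of its group mates and KO replicate 1 was 12.3 times. SCARNA9, SCARNA4, SNORA26 and SNORA77, named here after their values were seen apart from SCARNA9, were 7.69, 12.5, 8.07 and 8.60 times their mates in degrader replicate 2 and 4.37, 8.29, 5.22 and 8.0 times in KO replicate 1. SNORD100 and SNORD14E, in introns of RPS12 and HSPA8, went the other way, at 0.113 and 0.239 times their mates in degrader replicate 2 and 0.214 and 0.282 times in KO replicate 1.

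On a log2 scale with 0.5 added to each level, 19 of 80 members (23.8%) lay over 1 above their mates in degrader replicate 2, 19 (23.8%) in KO replicate 1 and 15 (18.8%) in both. Among 21316 nuclear genes with at least 50 counts these shares were 21.01%, 12.6% and 9.78%. Across the 80 members the deviations in the 2 libraries had a Pearson r of 0.75 and a Spearman rho of 0.65, and across the 21316 genes r was 0.74, each over points that share both libraries and their depth. The members' correlation was thus close to that of all genes. What the high mitochondrial share has to do with these levels was not tested.

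**Figure D2:**
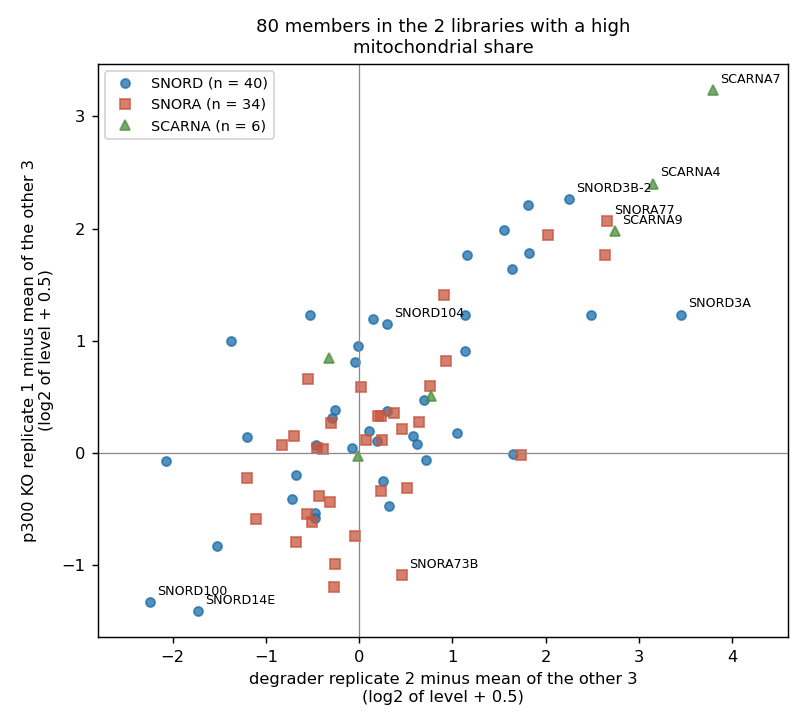
Each point is 1 of the 80 members; the axes give its level in degrader replicate 2 (horizontal) and p300 KO replicate 1 (vertical) less the mean of the other 3 libraries of the group, in log2 of level plus 0.5. SCARNA7, SCARNA4 and SCARNA9 lie high on both axes, SNORD100 and SNORD14E low on both, and r is 0.75.

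The U3 genes fell in p300 KO cells. SNORD3A had 4.85, 1.88, 1.58 and 1.86 nuclear CPM in KO libraries, against 7.28, 8.78, 8.82 and 8.76 in NTC libraries. All KO libraries lay below all NTC libraries, and the log2 fold change was -1.84 ± 0.30 (SE, n = 4 each; edgeR adjusted p = 0.0039), or -2.24 ± 0.16 (edgeR adjusted p = 8.85e-15) without KO replicate 1. SNORD3B-1 had 18.4, 5.91, 3.47 and 3.38 in KO libraries against 18.7, 23.1, 26.0 and 24.0 in NTC, with KO replicate 1 just under the lowest NTC value. Its log2 fold change was -1.69 ± 0.46 (edgeR adjusted p = 0.0339), and -2.43 ± 0.13 (edgeR adjusted p = 5.11e-18) without that library. SNORD3B-2 had 22.9, 5.91, 4.19 and 3.00 in KO libraries against 22.8, 29, 31.0 and 27.3 in NTC, so that KO replicate 1 overlapped NTC. The log2 fold change was -1.75 ± 0.52 (edgeR adjusted p = 0.0461), and -2.65 ± 0.13 (edgeR adjusted p = 1.31e-19) without it.

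Together the 3 genes summed to 46.1, 13.7, 9.25 and 8.24 nuclear CPM in KO libraries and 48.7, 60.8, 65.8 and 60.0 in NTC libraries. Without KO replicate 1 that is 10.4 ± 2.91 (SD, n = 3) in KO against 58.8 ± 7.22 (SD, n = 4) in NTC, a ratio of 0.18 on nuclear CPM and 0.17 on CPM of all counts. These were the only members called in this comparison: 33 of the 80 passed edgeR's filter on low counts, 0 were higher and 3 lower at an adjusted p under 0.05. Over all 17394 genes tested, 6.45% were called higher and 10.4% lower (16.9% either way), so 3 lower of 33 tested is near the share over all genes. The median log2 fold change was 0.21 over the 33 members and 0.03 over all genes. At an unadjusted p under 0.05 there were 3 lower and 2 higher members, against 17.4% lower and 16.4% higher over all genes. DESeq2 called 2 lower and 1 higher, against 12.8% and 10.1% of the 17324 genes to which it gave an adjusted p. With all counts as library size, 4.83% of all calls were higher, against 38.2% with nuclear counts. The calls of SNORD3B-1 and SNORD3B-2 were thin with all 8 libraries: leaving out any library other than KO replicate 1 kept 1 member lower, SNORD3A.

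**Figure D3:**
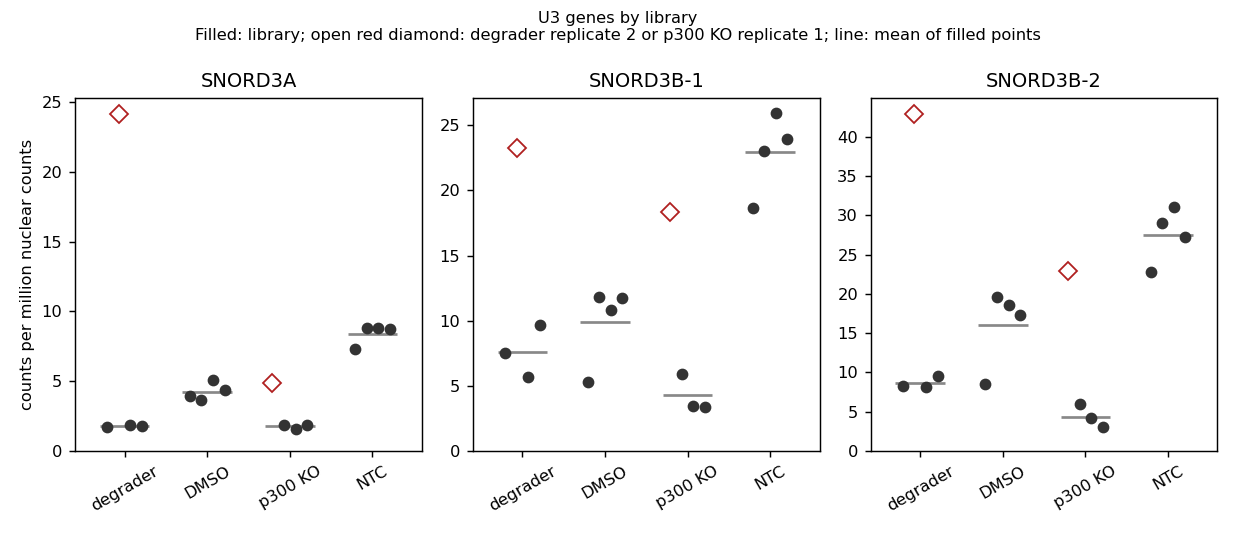
Nuclear CPM (vertical axis, from 0) of the 3 U3 genes in each library, with filled points for libraries, open diamonds for degrader replicate 2 and p300 KO replicate 1, and lines at the mean of the filled points. The 3 filled KO libraries lie between 1.58 and 5.91 over the 3 genes, below the NTC libraries of each gene.

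In degrader-treated cells U3 was not called with all 8 libraries. SNORD3A had 1.68, 24.2, 1.82 and 1.80 nuclear CPM in degrader libraries and 3.92, 3.67, 5.07 and 4.33 in DMSO libraries, and the fold change was 0.62 ± 0.88 on the log2 scale (edgeR adjusted p = 0.751). Degrader replicate 2 was the highest of all 16 libraries and the other 3 degrader libraries were below every DMSO library. Without replicate 2 the log2 fold change was -1.26 ± 0.20 (edgeR adjusted p = 3.7e-04). SNORD3B-2 had 8.32, 43.0, 8.12 and 9.52 in degrader libraries against 8.56, 19.6, 18.6 and 17.3 in DMSO, with a log2 fold change of 0.02 ± 0.57 (edgeR adjusted p = 0.990), and -0.89 ± 0.21 (edgeR adjusted p = 0.0051) without replicate 2. Here DMSO replicate 1 lay within the degrader range. SNORD3B-1 had 7.48, 23.3, 5.63 and 9.70 against 5.28, 11.8, 10.8 and 11.8 in DMSO and was not called either way, with log2 fold changes of 0.15 ± 0.44 (edgeR adjusted p = 0.895) and -0.39 ± 0.24 without replicate 2 (edgeR adjusted p = 0.203).

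For U3 the degrader effect was subtracted from the KO effect in 1 edgeR fit of all 16 libraries. With all libraries the log2 differences were -2.34 ± 1.00 for SNORD3A, -1.75 ± 0.70 for SNORD3B-1 and -1.68 ± 0.84 for SNORD3B-2, and none was called (edgeR adjusted p = 0.178, 0.156 and 0.263). Without degrader replicate 2 and KO replicate 1 all 3 were called lower, at -0.98 ± 0.25, -2.03 ± 0.31 and -1.75 ± 0.29 (edgeR adjusted p = 0.0039, 2.0e-05 and 6.0e-05). The log2 fold change of each U3 gene was thus lower in the KO than in the degrader contrast once those libraries were left out. The controls were unlike, since the U3 genes summed to a mean of 30.2 nuclear CPM in DMSO and 58.8 in NTC libraries. A 6 h treatment is also set against a knockout here, and the part of either in the difference was not tested.

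Beyond U3, the degrader comparison turned on replicate 2. With all 8 libraries, 50 members passed the low-count filter and 0 were called higher and 1 lower, where 1.31% of all 16159 genes tested were higher and 4.21% lower (5.52% either way). DESeq2 called 2 lower and 0 higher, against 6.28% and 5.01% of the 15914 genes to which it gave an adjusted p. At an unadjusted p under 0.05 there were 11 lower and 0 higher, against 13.9% lower and 6.8% higher over all genes. Of all genes called, 23.8% were higher, and 34.9% with TMM. Without degrader replicate 2, 53 members passed and 21 were called lower and 0 higher, against 24.7% lower and 13.2% higher (37.9% either way) over 16462 genes. The 21 are 39.6% of the members tested. The median log2 fold change of the 53 was -0.60 and 47 of them were negative, against a median of -0.12 and 60.2% negative over all genes. With TMM scaling, which moves the median of all genes to -0.02, 18 of the 21 remained lower, 0 were higher and the members' median was -0.50, where 19.4% of all genes were lower and 19.4% higher. Other short genes are set beside the members: the 13112 other nuclear genes with fewer than 400 bases of exon summed to 1940, 3233, 2014 and 2008 nuclear CPM in degrader libraries against 2659, 2591, 2938 and 2626 in DMSO. Without replicate 2 the mean degrader level was 0.735 times that of DMSO, with all degrader libraries below all DMSO libraries. In KO libraries these genes summed to 2835, 1808, 1824 and 2061, against 1989, 2131, 2188 and 2066 in NTC, so that the 2 libraries that stand apart were again the highest of their groups. The short-gene sums include RN7SL2, described below, with 526.4 to 684.1 nuclear CPM in DMSO and 205.4 to 232.3 in degrader replicates 1, 3 and 4. A large part of the fall in the degrader sum is thus that of 1 gene, and the sum does not describe short genes in general. The part of gene length in the members' values was not tested. The filter also keeps members that are high in 1 group only, so the counts describe the tested members and not all 80.

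By class, without degrader replicate 2, 9 of 27 tested SNORD, 9 of 20 SNORA and 3 of 6 SCARNA members were lower, with medians of -0.57, -0.60 and -0.84. All 20 SNORA and all 6 SCARNA values were negative, and 21 of 27 SNORD values. Over all genes tested 24.7% were lower and 60.2% negative, with a median of -0.12. Members that pass the filter through their DMSO level favour a lower value in each class, so these counts are a description only. With all libraries 1 SCARNA and no SNORD or SNORA member was called, where 4.21% of all genes were lower and 1.31% higher. At an unadjusted p under 0.05, 4 SNORA, 5 SNORD and 2 SCARNA members were lower, with none higher, against 13.9% lower and 6.8% higher over all genes.

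SCARNA13, an H/ACA scaRNA in SNHG10, was the member called with and without the library that stands apart. It had 0.299, 0.226, 0.276 and 0.659 nuclear CPM in degrader libraries, against 1.57, 1.60, 1.91 and 1.49 in DMSO libraries, with no overlap. The log2 fold change was -2.06 ± 0.36 (edgeR adjusted p = 0.0142), and -1.98 ± 0.36 (edgeR adjusted p = 9.1e-04) without replicate 2. Counts were low, from 1 to 11 per degrader library, and 46.2% of the gene lies within an exon of GLRX5, so its level is uncertain if reads were counted without strand. Leaving out degrader replicate 1, degrader replicate 3 or DMSO replicate 4 ended the call.

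Among the other scaRNAs, SCARNA9 in CEP295, 42.2% of which overlaps exons of other genes, had 3.71, 21.5, 2.93 and 1.74 in degrader libraries and 4.21, 7.29, 5.73 and 4.98 in DMSO. Without replicate 2 the degrader libraries were all lower, with a log2 fold change of -1.0 ± 0.25 (edgeR adjusted p = 0.0062), and with it 0.27 ± 0.71 (edgeR adjusted p = 0.879). SCARNA7, whose values are given above, was not called with it (1.65 ± 1.03, edgeR adjusted p = 0.412) or without it (-0.60 ± 0.30, edgeR adjusted p = 0.129). SCARNA4 had 0.658, 13.6, 1.05 and 1.56 against 2.57, 1.30, 5.44 and 1.75, and fell by 1.31 ± 0.45 on the log2 scale (edgeR adjusted p = 0.0323) only without replicate 2, where DMSO replicate 2 still overlaps the degrader libraries. A second, almost fully overlapping gene carries the same symbol, so its value is uncertain.

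Of the abundant H/ACA genes, SNORA33 in RPS12 had 8.56, 6.10, 9.5 and 9.52 in degrader libraries and 13.3, 10.3, 11.7 and 11.3 in DMSO libraries. All degrader values were below all DMSO values, and the log2 fold change was -0.45 ± 0.16 (edgeR adjusted p = 0.162), or -0.34 ± 0.12 (edgeR adjusted p = 0.0427) without replicate 2 and not called there with TMM. SNORA73B, the H/ACA RNA of early ribosomal RNA cleavage, had 13.6, 20.8, 16.3 and 15.0 against 22.0, 13.8, 14.3 and 16.9, which overlap, with -0.04 ± 0.19 (edgeR adjusted p = 0.935). The SNORA71 genes of SNHG17 fell without replicate 2 in 2 of 3 cases: SNORA71C was at -1.21 ± 0.33 (edgeR adjusted p = 0.0113) and SNORA71A at -1.09 ± 0.39 (edgeR adjusted p = 0.0388, not called with TMM), while SNORA71B was at -0.84 ± 0.38 (edgeR adjusted p = 0.0919). The SNORA71 genes are members of 1 family and are similar in sequence, so the split of reads among them is uncertain.

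SNORD104, the most abundant box C/D gene, had 60.1, 85.2, 68.3 and 79.0 in degrader libraries and 75.1, 41.1, 64.3 and 55.6 in DMSO libraries, which overlap, with a log2 fold change of 0.31 ± 0.20 (edgeR adjusted p = 0.424). SNORD99 in SNHG12 had 5.75, 5.43, 4.64 and 6.11 against 9.13, 4.50, 9.12 and 8.86, with DMSO replicate 2 below the degrader libraries and -0.53 ± 0.24 (edgeR adjusted p = 0.259). SNORD14A in RPS13, a copy of U14, which serves the maturation of small-subunit ribosomal RNA, had 6.10, 4.07, 5.74 and 6.41 against 7.71, 4.56, 7.72 and 6.60, and was not called at -0.23 ± 0.22 (edgeR adjusted p = 0.610). Among the box C/D members called lower without replicate 2, chosen for naming after their values were seen, SNORD100 fell by 0.57 ± 0.16, SNORD63B by 1.34 ± 0.34 and SNORD19C by 1.85 ± 0.44 on the log2 scale (edgeR adjusted p = 0.0112, 0.0067 and 0.0048). SNORD19C had 0.179, 0, 0.497 and 0.299 nuclear CPM in degrader libraries and 1.28, 0.711, 1.25 and 1.62 in DMSO.

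**Figure D4:**
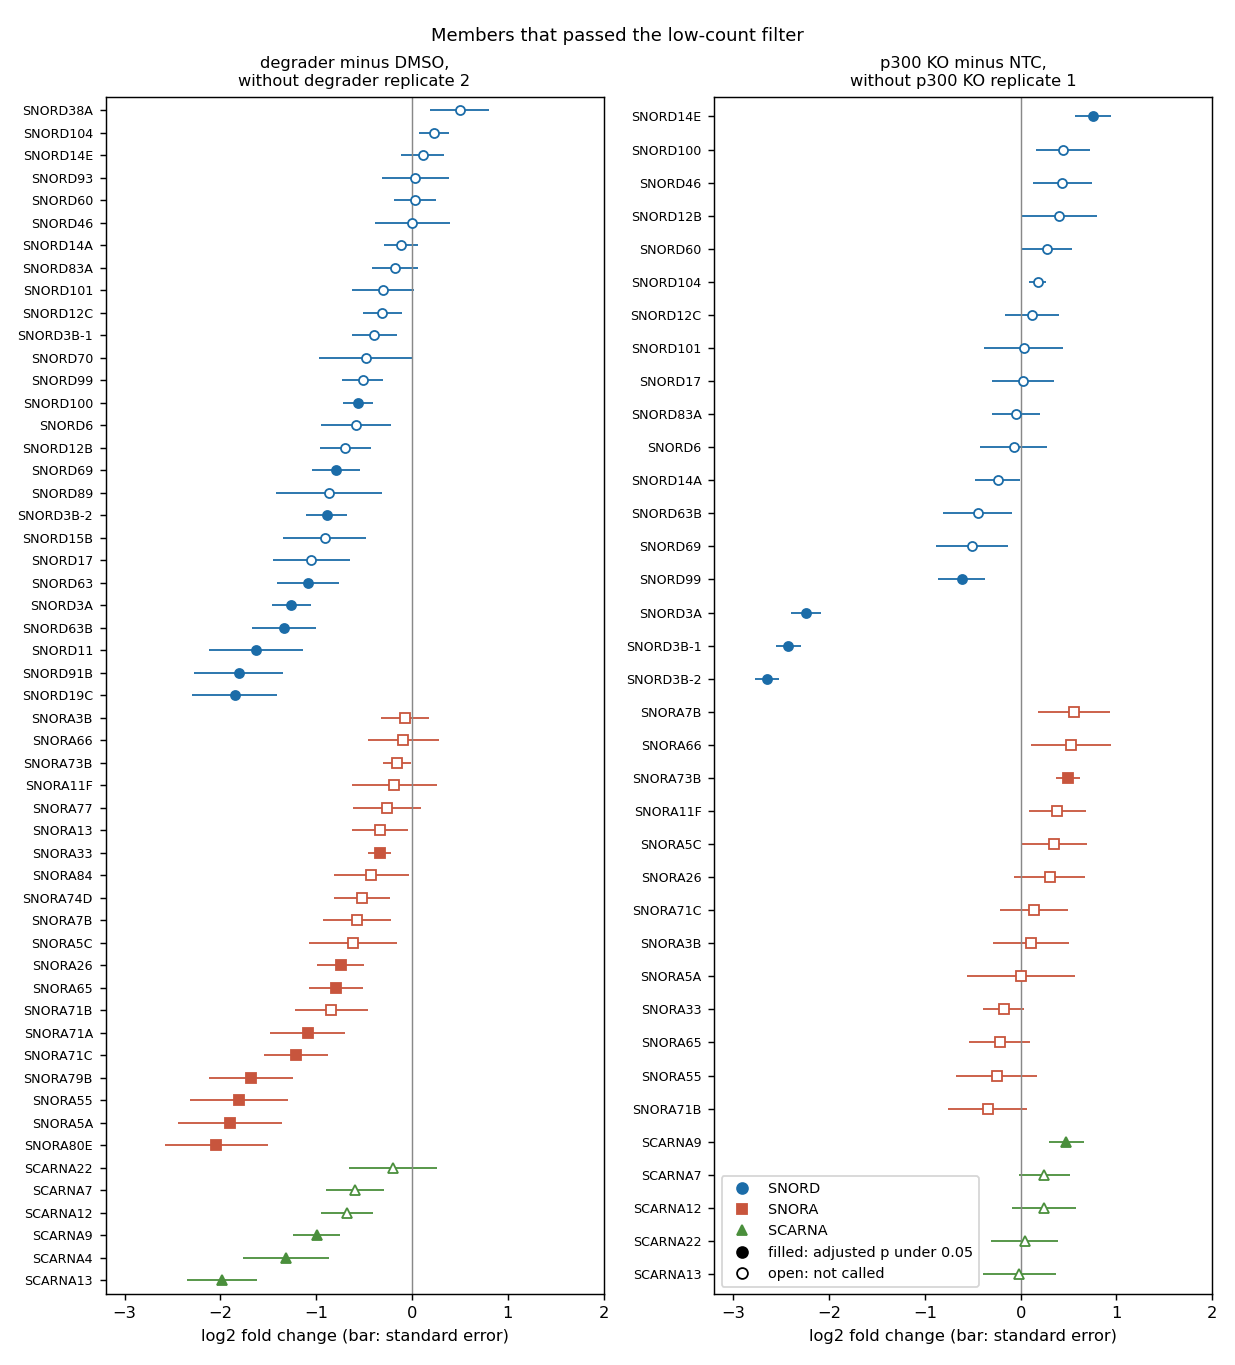
Log2 fold change (horizontal axis) with its standard error for each member that passed the low-count filter, degrader minus DMSO on the left (53 members) and p300 KO minus NTC on the right (36 members), without degrader replicate 2 and KO replicate 1. Filled symbols have an edgeR adjusted p under 0.05; on the left 21 are filled and all are below 0, and on the right the U3 genes lie below -2.

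In p300 KO cells the members other than U3 showed small differences. Without KO replicate 1, 36 members passed the filter and 3 were called higher and 4 lower, against 20.0% higher and 21.1% lower (41.1% either way) of 17671 genes, with a median log2 fold change of 0.07 over members and 0.01 over all genes. With TMM all 7 remained called, where 19.1% of all genes were higher and 21.9% lower. The higher members were named after their values were seen, apart from SNORA73B and SCARNA9. SNORA73B had 3.00, 6.70, 7.31 and 6.82 in KO libraries against 5.37, 4.55, 5.5 and 4.31 in NTC, with KO replicate 1 below and the others above every NTC library, and log2 fold changes of 0.31 ± 0.23 (edgeR adjusted p = 0.376) and, without that library, 0.49 ± 0.13 (edgeR adjusted p = 0.0021). SNORD14E in HSPA8 showed the same order, with 0.924, 2.77, 3.63 and 3.44 against 1.96, 2.30, 2.02 and 1.5, and 0.75 ± 0.19 (edgeR adjusted p = 0.0016) without replicate 1. SCARNA9 had 15.3, 3.30, 2.86 and 4.31 against 2.79, 1.93, 2.70 and 2.57, all KO above all NTC, with 1.28 ± 0.51 (edgeR adjusted p = 0.110) and, without replicate 1, 0.48 ± 0.18 (edgeR adjusted p = 0.0350).

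The fourth lower member, SNORD99, had 2.89, 0.942, 1.12 and 1.69 in KO libraries against 1.65, 1.99, 2.12 and 1.89 in NTC, and fell by 0.61 ± 0.25 (edgeR adjusted p = 0.0415) without KO replicate 1 only, with values that overlap. SNORD104 had 39.1, 16.9, 16.3 and 18.7 against 17.0, 14.0, 14.3 and 15.9, with log2 fold changes of 0.54 ± 0.26 (edgeR adjusted p = 0.173) and 0.18 ± 0.09 (edgeR adjusted p = 0.102). SNORA33, SNORD14A, SCARNA7 and SCARNA13 were not called in either fit. SCARNA13 had 1.39, 0.576, 0.460 and 0.600 in KO libraries and 0.413, 0.575, 0.627 and 0.581 in NTC libraries, which overlap.

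Box C/D and H/ACA members took different shares of the signal in the 2 contrasts. The summed SNORD level was 3.12, 3.38, 3.01 and 3.54 times the summed SNORA level in degrader libraries, against 2.45, 2.57, 2.93 and 2.59 times in DMSO libraries. All degrader libraries were above all DMSO libraries. In KO libraries the ratio was 4.58, 2.38, 2.19 and 2.25, against 4.81, 5.12, 5.30 and 5.04 in NTC libraries, with all KO libraries below all NTC libraries. Without KO replicate 1 the mean was 2.27 ± 0.10 (SD, n = 3) in KO and 5.07 ± 0.20 (SD, n = 4) in NTC. These ratios rest on U3 and SNORD104. Without those 4 genes the other 36 SNORD members summed to 50.5, 51.1, 49.3 and 52.7 nuclear CPM in degrader libraries, against 78.3, 56.1, 70.6 and 67.7 in DMSO libraries. All degrader libraries lay below all DMSO libraries, and the ratio of the means was 0.747 with and 0.746 without replicate 2, beside 0.714 for the H/ACA members without replicate 2. In CPM of all counts degrader replicate 4, at 49.1, overlapped DMSO replicate 2, at 48.6. In KO libraries the 36 members summed to 36.6, 21.8, 22.2 and 21.4 nuclear CPM, against 20.0, 22.4, 21.4 and 19.4 in NTC libraries, which overlap. Their sum was 1.23, 0.761, 1.11 and 1.22 times the SNORA sum in degrader libraries against 1.12, 1.09, 1.22 and 1.12 times in DMSO, and 1.38, 0.990, 1.02 and 0.995 times in KO libraries against 1.12, 1.18, 1.12 and 1.03 times in NTC. The degrader and DMSO libraries thus overlapped, and only KO replicate 1 lay above the NTC range while the other KO libraries lay just below it.

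Tested directly, the 2 effects differed for a few members. In the fit of all 16 libraries, 57 members passed the filter, 2 had a higher effect in the KO contrast and 0 a lower one, against 4.38% and 2.96% of 18396 genes (7.34% either way). DESeq2 called 2 higher and 1 lower, against 4.3% and 7.16% of the 18166 genes to which it gave an adjusted p. At an unadjusted p under 0.05 there were 9 higher and 2 lower, against 13.6% and 8.38% of all genes, so that the 9 of 57 are near the share over all genes. Of all genes called here 59.6% were higher, and 43.9% with TMM. SCARNA13 had a log2 difference of 2.43 ± 0.53 (edgeR adjusted p = 0.0109), and 1.97 ± 0.51 without degrader replicate 2 and KO replicate 1 (edgeR adjusted p = 0.0044). SNORA71A had 0.539, 1.36, 0.442 and 1.08 nuclear CPM in degrader libraries against 1.86, 1.72, 0.809 and 1.42 in DMSO. It had 0.809, 0.471, 0.715 and 0.546 in KO libraries against 0.465, 0.261, 0.193 and 0.194 in NTC. The KO libraries were all above the NTC libraries, at few counts, while degrader and DMSO overlapped. Its difference was 2.03 ± 0.59 (edgeR adjusted p = 0.0474), and 2.14 ± 0.59 (edgeR adjusted p = 0.0076) without those libraries, with an adjusted p of up to 0.107 when single libraries were left out. For both SCARNA13 and SNORA71A every NTC library lay below every DMSO library. The effects were thus measured from unlike control levels, and the part of this in the differences was not tested. With both left out, 59 members passed and 11 were higher and 3 lower, the 3 being U3, against 20.5% and 11.9% of 18499 genes (32.4% either way). Higher were 3 SNORD, 5 SNORA and 3 SCARNA members, and with TMM 10 of the 11 remained, where 14.8% of all genes were higher and 17.5% lower. Of the 11, 5 did not pass the filter in the KO comparison (SCARNA4, SNORA71A, SNORA80E, SNORD11B and SNORD59A), and SNORD11B and SNORD59A did not pass in the degrader comparison either. Members that pass the joint filter through their DMSO level favour a higher difference, so that the count of 11 is a description only.

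Most members lie inside a longer gene, so each was set beside its host gene. Without degrader replicate 2, 49 members in 38 hosts could be compared: the median log2 fold change was -0.60 for members and -0.13 for hosts, and 41 of 49 members lay below their host, with a median gap of -0.69. With all libraries 46 members in 36 hosts gave medians of -0.52 and -0.06, 37 members below their host and a median gap of -0.53. Members that pass the filter through their DMSO level favour a lower value, so these gaps are a description only. The host median without replicate 2 was near the -0.12 of all genes tested. Pearson's r across pairs was 0.31 without replicate 2 and 0.16 with it, over points that share libraries and in part hosts. Of the 19 members called lower that had a tested host, 8 had a host called lower as well and 2 a host called higher. A host with several such members (SNHG17, KHDC4 and RPS12 among them) is counted once for each, so these are not separate hosts. Over all genes tested without replicate 2, 24.7% were lower and 13.2% higher. RPS12, a ribosomal protein gene, was higher at 0.54 ± 0.14 (edgeR adjusted p = 0.0065) while its members SNORA33 and SNORD100 were lower and SNORD101, at -0.31, was not called (edgeR adjusted p = 0.472). With all libraries RPS12 was at 0.26 ± 0.36 (edgeR adjusted p = 0.742). SNHG17, SNHG10 and KHDC4 were lower at -0.40, -0.55 and -0.84 together with members they hold (edgeR adjusted p = 0.0022, 0.0164 and 7.4e-05), and HSPA9 was at 0.01 (edgeR adjusted p = 0.917) while SNORD63 and SNORD63B were lower.

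In the KO comparison without replicate 1, 32 members in 27 hosts gave a median of 0.11 for members and -0.08 for hosts, a median gap of 0.17, 10 members below their host and r of 0.30. With all libraries 29 members in 25 hosts gave medians of 0.24 and -0.02, a median gap of 0.30, 8 members below their host and r of 0.15. Without replicate 1, 3 of the 4 called members with a tested host had a called host, where 41.1% of all genes were called. CEP295 was higher at 0.45 (edgeR adjusted p = 4.1e-07) beside SCARNA9 at 0.48, and HSPA8 at 0.24 (edgeR adjusted p = 1.5e-04) beside SNORD14E at 0.75. SNHG3, the host of SNORA73B, was not called at -0.04 (edgeR adjusted p = 0.531). SNHG12, the host of SNORD99, was lower by 0.22 on the log2 scale and SNHG25, the host of SNORD104, by 0.53, while SNORD104 was not called. The U3 genes have no host in this annotation, so that no such pair could be formed for them.

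**Figure D5:**
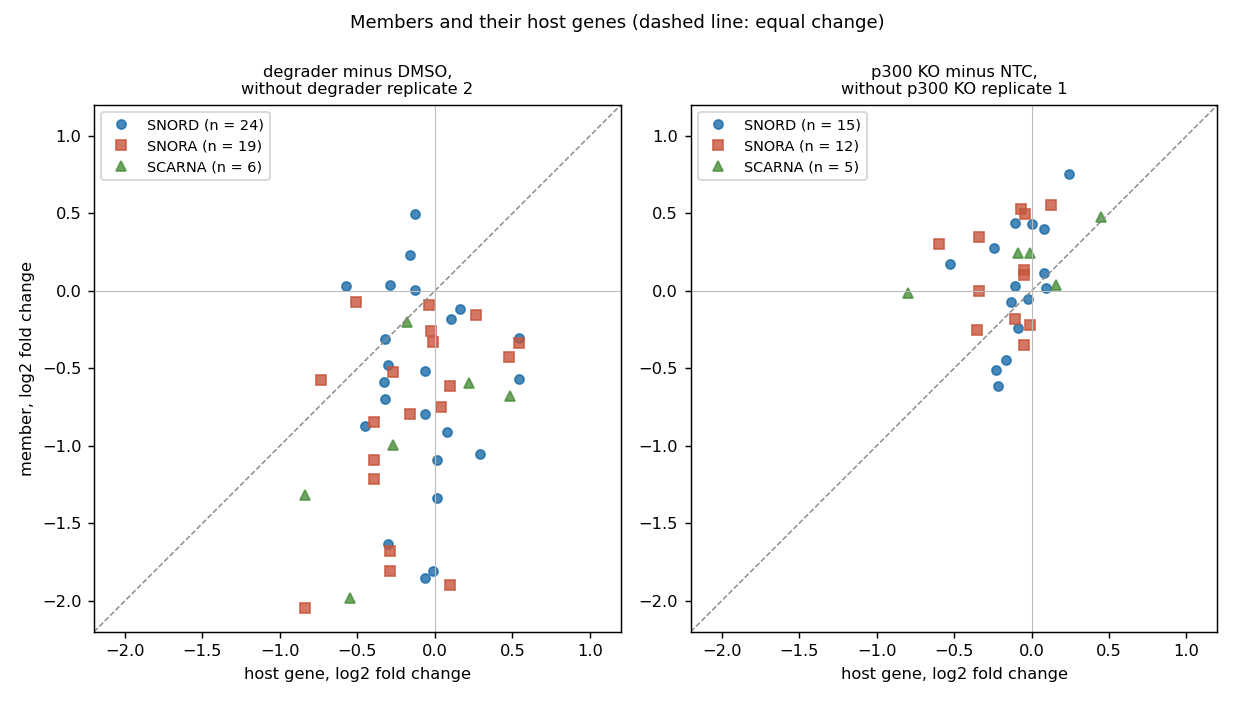
Log2 fold change of each member (vertical axis) against that of its host gene (horizontal axis), degrader minus DMSO on the left (49 pairs) and p300 KO minus NTC on the right (32 pairs), without degrader replicate 2 and KO replicate 1; the dashed line marks equal change. On the left 41 of 49 pairs lie below the line, on the right 10 of 32. The left pair of SNORD14E (0.11) and its host HSPA8 (1.68), counted among the 41, lies beyond the horizontal axis and is not shown.

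The proteins that build and process these RNAs were read from 3 lists. Over all genes tested, 1.31% were called higher and 4.21% lower with degrader, and 13.2% and 24.7% without degrader replicate 2. In the KO comparison these shares were 6.45% and 10.4%, and 20.0% and 21.1% without KO replicate 1. Of 9 core proteins, 1 rose and 0 fell with degrader: NOP56, a scaffold of box C/D particles, at 0.77 ± 0.14 (edgeR adjusted p = 0.0186). Without degrader replicate 2, NOP56 (0.65) and NHP2 (0.46), an H/ACA protein, rose, and the dyskerin gene DKC1 (-0.24) and NOP58 (-0.30) fell. With all libraries DKC1 and NOP58 were on the other side of 0 and not called, at 0.36 ± 0.37 and 0.82 ± 0.59 (edgeR adjusted p = 0.640 and 0.476). In KO cells GAR1, an H/ACA protein, fell by 0.27 ± 0.08 on the log2 scale (edgeR adjusted p = 0.0384), and 1 of 9 was lower and 0 higher. Without KO replicate 1, 8 of 9 were lower, with DKC1 at -0.37, RRP9, a U3-specific protein, at -0.30, the fibrillarin gene FBL at -0.15 and a median of -0.28 for the list.

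Of 19 genes for assembly, maturation and transport, edgeR called 0 with degrader (2 higher and 1 lower at an unadjusted p under 0.05, and 1 higher by DESeq2), and 3 rose and 3 fell without replicate 2, among them the assembly ATPase RUVBL1 (0.56) and NOPCHAP1 (-0.47). In KO cells 1 rose and 3 fell: WRAP53, which brings RNAs to Cajal bodies, rose by 0.22 ± 0.07 (edgeR adjusted p = 0.0494), and NOLC1, RUVBL1 and the H/ACA assembly factor NAF1 fell by 0.40, 0.46 and 0.39 on the log2 scale (edgeR adjusted p = 0.0038, 0.0040 and 0.0206). Without KO replicate 1 the counts were 3 and 3. Of 17 genes for excision, trimming and decay, edgeR called 0 with degrader (2 higher at an unadjusted p under 0.05, and 1 higher by DESeq2), and 4 rose and 1 fell without replicate 2, led by the exosome cofactor C1D at 0.99 ± 0.17 (edgeR adjusted p = 5.3e-04). In KO cells 1 rose and 0 fell, the exosome nuclease EXOSC10 at 0.35 ± 0.07 (edgeR adjusted p = 0.0124), and without KO replicate 1 there were 7 higher and 2 lower, with the debranching enzyme DBR1 at 0.33. Beside the shares of all genes given with the lists, the counts of the 19 assembly genes were near those shares. The counts of all 3 lists are a description only.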

How the data were processed

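Bulk RNA was sequenced in 16 libraries, 4 each of degrader, DMSO, p300 KO and NTC, all of batch 1 in the labels. The deposited values were whole-number counts per gene. The submitters' processing notes name GRCh38 and these tools: Trimmomatic 0.36 for trimming, STAR 2.5.2b, Subread 1.5.2 with featureCounts, and DESeq2 1.16.1. Neither strand use, nor treatment of multi-mapping reads, nor the annotation version was stated. The labels name a QIAsymphony kit for RNA and the NEBNext Ultra II kit for libraries.

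Symbols came from a table of gene identifiers (40907 of 57500 had one). Positions, hosts and exon overlaps were taken from the deposited count tables, and all 80 members had the same position in GENCODE 29. Levels are nuclear CPM, that is counts per 1000000 counts outside the 35 mitochondrial genes. Each comparison was fitted on its own 8 libraries, and the difference of effects on all 16, with edgeR 4.0.16 in R 4.3.3 on nuclear genes: filterByExpr, nuclear counts as library size, the quasi-likelihood test, and Benjamini-Hochberg adjustment over all genes tested, called at 0.05. The SE is the absolute log2 fold change over the square root of F. Alternatives were TMM, all counts as library size, DESeq2 1.42.0, no low-count filter, a replicate block, each library left out, and TMM with the libraries that stand apart left out, the last chosen after seeing the data. Counts were also simulated with the mean levels and depths of these libraries. In the degrader comparison (15924 genes) 83.7% of genes changed by 1 on the log2 scale and 100% of those changed by 2 were recovered. In the KO comparison (17154 genes) these were 90.8% and 100%. The simulated spread was set by a formula, without a library that stands apart, and the changed genes were drawn from all genes. The recovery therefore does not hold for low-count members. SNORD19C, at -2.03 ± 0.51 in the degrader fit of all libraries, was not called (edgeR adjusted p = 0.0547).

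The members and lists were chosen with earlier results of these data known. Named members are well-known genes from a written list, the 8 with the highest mean level, those called in a comparison (up to 6 each way, 4 for the difference), those at the minimum of 50, and up to 4 called genes per protein list. Others are said to be chosen after their values were seen. Chi-square statistics per degree of freedom between libraries of a group were at least 2.74, so no library was counted as a duplicate.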

Additional observations from a re-analysis of the deposited data

Results flagged for a closer look

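A library far from the 3 others of its group was sought in 68 groups of 4 values, and 26 were found. Of these 7 were in degrader replicate 2, 13 in p300 KO replicate 1 and 6 elsewhere. Chance gives about 1 in 20 for a single group. The groups are not independent, because they share libraries, class sums hold the same genes, and the U3 genes are nearly identical. The 26 are thus a description only. Levels are nuclear CPM. Degrader replicate 2 stood above its group for SNORD3A (24.2), SNORD3B-2 (43.0), SCARNA7 (25.1), SCARNA9 (21.5) and SCARNA4 (13.6), and for the summed SNORA (67.15) and SCARNA (62.85) members. KO replicate 1 stood above its group for SNORD3A (4.85), SNORD3B-1 (18.4), SNORD3B-2 (22.9), SNORD104 (39.05), SCARNA7 (17.9), SCARNA9 (15.25), SCARNA13 (1.39), SNORD14A (3.93) and SCARNA4 (5.89). Its summed SNORD, SNORA and SCARNA levels stood above as well, at 121.8, 26.6 and 42.75, and SNORA73B (3.00) stood below. Both libraries also had the highest mitochondrial shares, and the part of that share in these levels was not tested.

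Elsewhere, NTC replicate 1 was low for SNORD3A (7.28) and for the summed SNORA members (17.8), DMSO replicate 1 was low for SNORD3B-1 (5.28) and DMSO replicate 2 for SNORD99 (4.505). NTC replicate 3 was high for SNORA33 (2.41) and degrader replicate 4 for SCARNA13 (0.659).

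The KO effect differed from the degrader effect, by the test of that difference, for SCARNA13 (log2 difference 2.43, edgeR adjusted p = 0.0109) and SNORA71A (2.03, edgeR adjusted p = 0.0474). Leaving out each of the 16 libraries in turn gave 2.04 to 2.90 for SCARNA13, with adjusted p up to 0.0313, and 1.79 to 2.37 for SNORA71A, with adjusted p up to 0.107. Both genes were lower in every NTC library than in every DMSO library, so the effects were measured from unlike control levels.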

How the results depend on the processing

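Calls of members were few and moved with the libraries. For degrader, 0 members were lower with all counts as library size or with the replicate block, 2 with DESeq2, and 18 with TMM and no degrader replicate 2; leaving out one library gave 0 to 21. For the KO, 1 member was higher with DESeq2 or no low-count filter and 3 with TMM and no KO replicate 1, and 1 was lower with the replicate block; leaving out one library gave 0 to 3 higher and 1 to 4 lower. For the difference, 1 was higher with TMM on nuclear or all counts, all counts as library size, no low-count filter or the replicate block; 11 were higher without both libraries and 10 with TMM as well, and 1 to 10 with one library left out. There 1 was lower with DESeq2, 3 without both libraries with or without TMM, and 0 to 2 with one library left out. The members' KO median exceeded that of all genes by 0.18, by 0.0638 with TMM and no KO replicate 1, and by 0.0641 to 0.2037 with one library left out. Without U3, the mean summed KO level over that of NTC was 1.44 in nuclear CPM with all 8 libraries, 1.13 without KO replicate 1, and 1.18 in CPM of all counts with all 8.

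Signs turned for members that were not called with all libraries. For degrader, all counts as library size gave -0.0773 for SNORD3A, -0.15 for SNORD3B-1, -0.42 for SNORD3B-2, -0.27 for SCARNA9 and -0.22 for SCARNA4, and the replicate block gave -0.42 for SNORD3A, -0.25 for SNORD3B-2, -0.27 for SCARNA9 and -0.42 for SCARNA4. TMM without degrader replicate 2 gave -1.17 for SNORD3A, -0.30 for SNORD3B-1, -0.80 for SNORD3B-2, -0.50 for SCARNA7, -0.90 for SCARNA9 and -1.22 for SCARNA4, of which SNORD3A, SNORD3B-2, SCARNA9 and SCARNA4 were called lower in that setting. SNORA73B was at 0.0271 and 0.0273 with TMM on nuclear and on all counts and 0.0338 with DESeq2. For the KO, all counts gave -0.19 for SNORA33 and -0.056 for SNORD14A, and TMM without KO replicate 1 gave -0.19 for SNORA33, -0.0247 for SCARNA13 and -0.25 for SNORD14A. One library left out gave, for degrader, -1.26 to 0.99 for SNORD3A, -0.39 to 0.39 for SNORD3B-1, -0.89 to 0.27 for SNORD3B-2, -0.16 to 0.12 for SNORA73B, -0.60 to 2.06 for SCARNA7, -1.0 to 0.64 for SCARNA9 and -1.31 to 0.99 for SCARNA4, and for the KO -0.18 to 0.13 for SNORA33, -0.0159 to 0.53 for SCARNA13 and -0.24 to 0.39 for SNORD14A. The cause was not tested. TMM, all counts or DESeq2 moved the median difference of all genes by -0.12, -0.12 and -0.15, and all counts moved the KO median by -0.17. Same-numbered libraries did not deviate together (r from -0.48 to 0.16). Degrader replicate 2 and KO replicate 1 weigh on the deviations in their groups, so these r cannot decide whether the replicate numbers pair libraries. With the block, all genes gave 9 higher and 62 lower calls for degrader, 367 and 959 for the KO and 504 and 346 for the difference. Low counts limit the members: 50 of 80 passed the filter for degrader and 33 for the KO.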

Other observations

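Short RNAs of other classes, taken from a fixed list of 13, gave a few values beside those of the snoRNAs. RN7SL2, an RNA of the signal recognition particle, had 220.7, 125.9, 205.4 and 232.3 nuclear CPM in degrader libraries against 571.2, 526.4, 684.1 and 547.8 in DMSO libraries, a log2 fold change of -1.57 ± 0.20 (edgeR adjusted p = 0.0035), or -1.41 ± 0.10 without degrader replicate 2 (edgeR adjusted p = 2.3e-07). Its near-identical copy RN7SL1 was listed at 0 in every library, as were RN7SK, RMRP, RPPH1, RNU12 and RNY3, so how reads were shared between copies is uncertain. In KO libraries RN7SL2 had 104.6, 136.1, 124.7 and 331.8 nuclear CPM against 102.8, 100.2, 100.02 and 98.5 in NTC libraries, with KO replicate 4 the highest and all KO libraries above all NTC libraries. It was not called with all libraries (0.80 ± 0.32, edgeR adjusted p = 0.111) and was called higher without KO replicate 1 (0.97 ± 0.15, edgeR adjusted p = 1.7e-06).

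Spliceosomal RNAs were scarce. RNU4-2 had 0.347, 0.419, 0.306 and 0.328 nuclear CPM in KO libraries against 1.29, 1.93, 1.69 and 1.65 in NTC libraries, a log2 fold change of -2.21 ± 0.26 (edgeR adjusted p = 7.7e-04), or -2.2 ± 0.33 without KO replicate 1 (edgeR adjusted p = 1.4e-06). RNU11, of the minor spliceosome, had 0.809, 0.0523, 0.255 and 0.273 against 1.55, 1.88, 1.49 and 1.60, with -2.46 ± 0.49 (edgeR adjusted p = 0.0092), or -3.04 ± 0.39 without KO replicate 1 (edgeR adjusted p = 7.1e-08). Its 0.0523 in KO replicate 2 lies under the floor of 0.157 for that library. Both genes had few counts in KO libraries and passed the low-count filter through their NTC level, which favours a lower value. In degrader libraries RNU4-2 had 0.179, 11.3, 0.387 and 0.239 against 0.571, 0.830, 1.47 and 1.42 in DMSO, and was called without replicate 2 (-1.95 ± 0.48, edgeR adjusted p = 0.0057) but not with it (1.18 ± 1.27, edgeR adjusted p = 0.653).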
